A study of Caenorhabditis elegans with 12 samples.

Results

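Nuclear hormone receptor genes of Caenorhabditis elegans were described across 4 genotypes. The genes were taken by name, as every entry of the deposited expression table called nhr followed by a number, except nhr-23, nhr-25, nhr-49, nhr-57 and nhr-85. This gave 243 of the 19568 genes in the table, 234 of them annotated as protein-coding and 9 as pseudogenes, and the rule uses no measured value. The study asks how worms with a defect in LONP-1, the protease that degrades damaged and surplus proteins in the mitochondrial matrix, are affected by mutations of the mitochondrial ribosome. RNA was taken from whole worms at the L4 stage, the last larval stage, fed HT115 E. coli, with 3 biological replicates of each genotype. The groups were wildtype, the lonp-1(cmh24) mutant, the mrps-38(P210L) mutant, and the double mutant lonp-1(cmh24) mrps-38(P210L). MRPS-38 belongs to the small subunit of the mitochondrial ribosome, and P210L names a proline to leucine substitution in it.

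Nuclear hormone receptors are transcription factors with a zinc-finger DNA-binding domain and a domain that can hold a small lipophilic ligand such as a sterol or a fatty acid. Caenorhabditis nematodes carry far more of them than vertebrates or insects, and most of the surplus descends from an ancestral receptor resembling HNF4, the vertebrate regulator of liver and gut metabolism. Only a minority have a described function in the worm. Those that do control fat desaturation and storage, the breakdown of propionate, responses to diet, toxins and pathogens, and larval and neuronal development.

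Between 22614493 and 22890539 reads were assigned to genes per library. Values are the authors' DESeq2 normalized counts (reads divided by 1 size factor per library) unless FPKM is named. FPKM also divides by gene length and is used where the levels of 2 genes are compared. Shares of reads are not divided by gene length. Tests used limma on log2(normalized count + 1) over the 15717 genes with a mean of at least 10, two-sided, with Benjamini-Hochberg adjustment over all of them, and a gene is called when its adjusted p is below 0.05. Each log2 fold change is given with its standard error (SE) on that scale, which understates the change of genes with low counts. On the authors' size factors the transcript of lonp-1 itself fell in its mutant (log2 fold change against wildtype -0.33, limma adjusted p = 3.45e-05). Its value under other scalings of the libraries is not given here, and mrps-38 was not analysed here. Marker genes of maturing tissues differed between the genotypes. The 6 vitellogenin genes (yolk proteins) took 0.104% of reads in wildtype, 0.00171% with mrps-38(P210L) alone, 0.949% with lonp-1(cmh24) alone and 2.45% with both. The 32 msp genes (major sperm proteins) took 0.117%, 0.00721%, 0.161% and 0.744% in the same order. The summed normalized count of 5 hypodermal markers was 102000, 120000, 48700 and 21500 in that order, and that of 5 intestinal markers 38800, 56100, 31000 and 41500. Sums of 4 body wall muscle markers were 134000, 158000, 59900 and 104000, of 3 pharynx markers 12200, 17300, 4870 and 8940, and of 5 neuron markers 4330, 5980, 4240 and 3550. These sums depend on the size factors. As shares of reads the hypodermal and body wall muscle markers stood at 0.459% and 0.605% in wildtype, and at 0.453% and 0.595% in mrps-38(P210L). The intestinal markers took 0.174%, 0.212%, 0.164% and 0.189% in the order above. Their sums in wildtype (29900 to 45500) and lonp-1(cmh24) (26700 to 37800) overlapped. In this comparison 1 of the 5 was called higher and 1 lower, and with total reads 3 and 0. No marker of these lists was at 0 in any group. In replicate 3 of mrps-38(P210L) the sperm and yolk sums stood above those of replicates 1 and 2. By the chi-square per degree of freedom of reads between replicates, wildtype replicate 2 (27.4 and 11.2 from the others) and lonp-1(cmh24) replicate 1 (25.1 and 16.1) stood further from their groups than that library (7.51 and 6.96). The part of these markers in the results below was not tested.

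The receptors formed a large family of weakly expressed genes. Their median level over the 12 libraries was 2.36 FPKM, against 5.83 FPKM for all genes of the table, and 26 of the 243 (10.7%) reached 10 FPKM, against 39.6% of all genes. Reads were found in all 12 libraries for 212 of them. The level ranged from 0.0301 to 105 FPKM, and the 10 most highly expressed receptors held 32.1% of the reads of the family. These were nhr-114 (105 FPKM), nhr-68 (43.8), nhr-97 (34.8), nhr-31 (23.3), nhr-46 (19.9), nhr-1 (18.6), nhr-8 (17.6), nhr-14 (17.3), nhr-86 (17.2) and nhr-105 (16.9). The first of these regulates the response to low vitamin B12 and the second the propionate shunt, both in the intestine. Of the 243 genes, 195 passed the filter and were tested, 7 of them pseudogenes that the counts of receptors below include. The other 48 had mean normalized counts of at most 9.66 and are not described gene by gene.

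The receptors lay mainly on chromosome V, which carried 155 of the 243 (63.8%) but 22.8% of all genes. The tested members on chromosome V had a median level of 2.59 FPKM, and those on the other chromosomes 8.14 FPKM. As a share of all reads in genes, the family took 0.191% ± 0.0019 in wildtype (SD, n = 3, as for the following values), 0.212% ± 0.0028 with mrps-38(P210L) alone, 0.231% ± 0.0099 with lonp-1(cmh24) alone and 0.181% ± 0.0016 with both mutations. The libraries of the 4 genotypes did not overlap on this measure, running from 0.189% to 0.192%, 0.209% to 0.214%, 0.224% to 0.243% and 0.18% to 0.183%. Because RNA came from whole worms, fewer cells of a type and less RNA per cell cannot be told apart here or in any result that follows.

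With the authors' size factors each single mutation left more receptors called higher than lower, and the double mutant had more of them lower. Total-read scaling turned the order round for mrps-38(P210L) (41 higher and 51 lower), where 25.5% of the calls among all genes were higher. In lonp-1(cmh24) against wildtype, 59 of the 195 receptors were called higher and 36 lower, where 30.6% of all tested genes were called higher and 32.1% lower. The median log2 fold change was 0.12 for the receptors and -0.06 for all tested genes. In mrps-38(P210L) against wildtype 80 were higher and 28 lower, against 31.5% and 34.7% of all genes, with medians of 0.24 and -0.01, and without mrps-38(P210L) replicate 3 the counts were 73 and 25. Without wildtype replicate 2 the counts were 57 and 34 for lonp-1(cmh24) and 74 and 24 for mrps-38(P210L), and without lonp-1(cmh24) replicate 1 they were 58 and 39 for lonp-1(cmh24). In the double mutant against wildtype 43 were higher and 65 lower, against 40.9% and 33.6% of all genes, with medians of -0.07 and 0.09. These 3 comparisons share the wildtype libraries. The double mutant against lonp-1(cmh24) gave 17 higher and 68 lower, against 29.8% and 24.5% of all genes, with medians of -0.23 and 0.03. The double mutant against mrps-38(P210L) gave 43 higher and 87 lower, against 43.6% and 40% of all genes, with medians of -0.28 and 0.05.

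**Figure D1:**
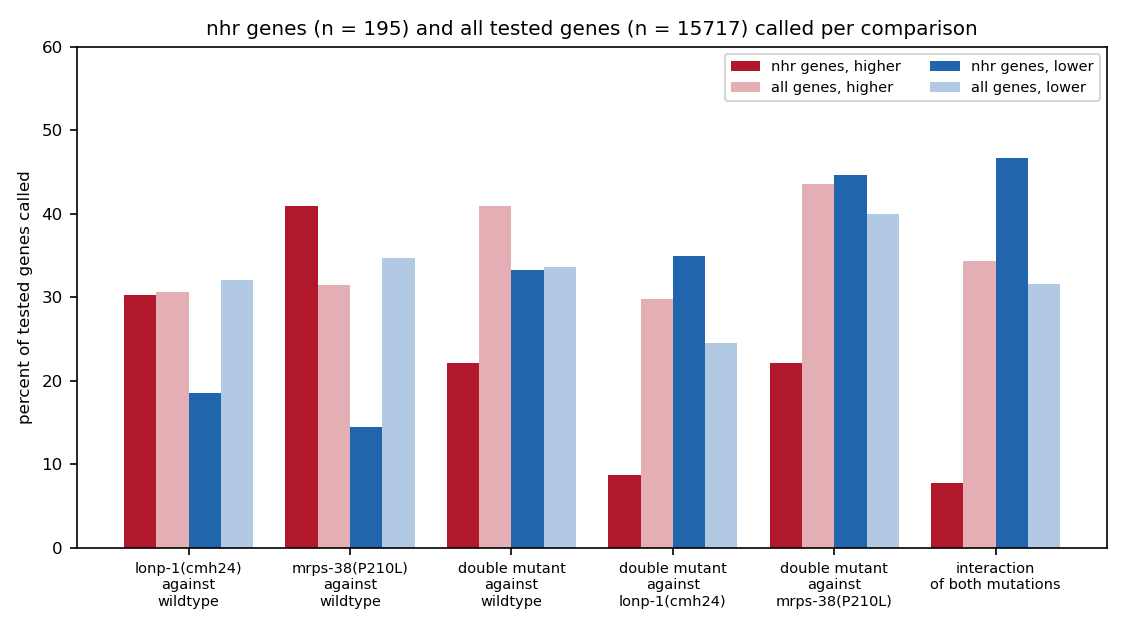
Percent of tested genes called higher (red) or lower (blue) at an adjusted p below 0.05 in each comparison, for the 195 tested nhr genes (solid bars) and all 15717 tested genes (pale bars). For the interaction, 15 nhr genes were higher and 91 lower, while the pale bars stand at 34.4% and 31.6%.

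The split between higher and lower calls depended on the scaling of the libraries. Scaled to total reads instead of the authors' size factors, the calls became 102 higher and 20 lower for lonp-1(cmh24) against wildtype, 41 and 51 for mrps-38(P210L) against wildtype, 9 and 121 for the double mutant compared with lonp-1(cmh24), and 63 and 72 for the double mutant compared with mrps-38(P210L). Higher calls made up 83.6%, 44.6%, 6.92% and 46.7% of the receptor calls in these comparisons. Among the calls of all genes with total reads they made up 67.1%, 25.5%, 30.3% and 62.5%. With TMM factors the double mutant against wildtype gave 30 higher and 82 lower, while 47.1% of the calls among all genes were higher. Total-read scaling moved the median of all genes to 0.17, -0.26, 0.11, -0.19 and 0.32 in the 5 comparisons of 2 groups, in the order given above. The receptors' median minus that of all genes, which a change of scaling leaves almost as it is by construction, was 0.18, 0.25, -0.16, -0.26 and -0.33 with the authors' size factors. Statements on single genes below use the authors' size factors, and name the gene where total reads ended a call or turned a direction.

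The interaction asks whether the lonp-1 mutation acted differently in mrps-38(P210L) worms than in wildtype, and it was negative for most receptors that were called. Of the 195, 91 were called lower and 15 higher, against 31.6% and 34.4% of all genes. The median interaction was -0.47 for the receptors and 0 for all genes on the log2 scale. With total reads the counts were 84 lower and 18 higher, while 54.5% of the calls among all genes were higher. A negative value means that the double mutant was lower than the sum of both single effects on the log2 scale.

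The effect of each mutation can be set out in 2 backgrounds that share no library. For the lonp-1 mutation these are wildtype and mrps-38(P210L) worms. Of the 195 receptors, 74 were called in both backgrounds. Of these, 26 were higher in both, 31 lower in both, 16 higher in wildtype but lower in mrps-38(P210L), and 1 the reverse. Opposite calls were 23% of the 74 receptors and 14.8% of the 8475 genes of the whole table called in both. Those 8475 split into 3525 higher in both, 3694 lower in both, 572 higher in wildtype but lower in mrps-38(P210L), and 684 the reverse. Across the receptors both effects had a Pearson correlation of 0.486 (Spearman 0.544), and across all 15717 tested genes 0.384, where genes are not independent replicates. For the mrps-38 mutation, with the authors' size factors, most receptors called in both backgrounds had opposite directions, and so did most of all genes called in both. Of 51 receptors called both in wildtype and in lonp-1(cmh24) worms, 32 were higher in the first and lower in the second, 6 the reverse, 5 higher in both and 8 lower in both. Opposite calls made up 74.5% of the 51 receptors, and 69.9% of the 6118 genes of the whole table called in both. Of those 6118, 1686 were higher in the first and lower in the second, 2588 the reverse, 1072 higher in both and 772 lower in both. The Pearson correlation of both effects was -0.34 across the receptors (Spearman -0.114) and -0.577 across all tested genes (Spearman -0.396).

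**Figure D2:**
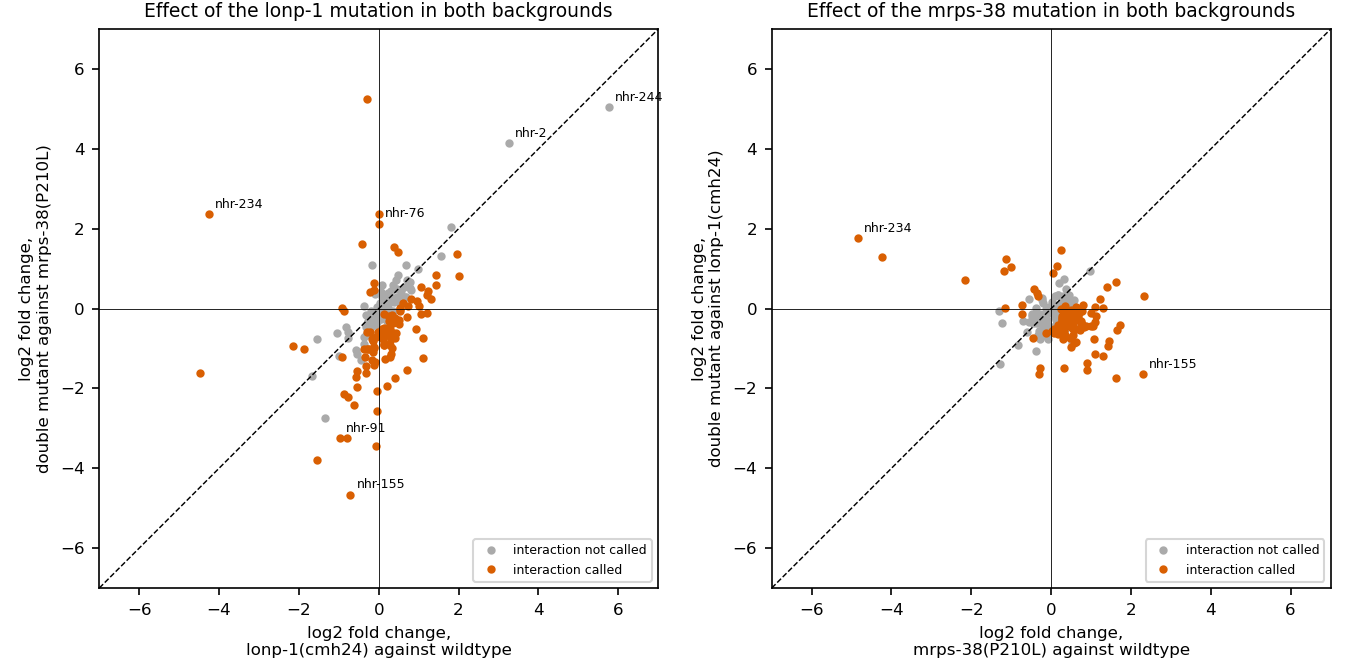
Log2 fold changes of the 195 tested nhr genes with each mutation in wildtype (x axis) and in worms that carry the other mutation (y axis). Orange points have a called interaction, the dashed line marks equal effects, and named points include nhr-244, high with the lonp-1 mutation in both backgrounds, and nhr-155, high with the mrps-38 mutation in wildtype and low with it in lonp-1(cmh24) worms.

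By genotype of highest mean, 87 of the 195 receptors (44.6%) peaked with mrps-38(P210L) alone, 62 (31.8%) with lonp-1(cmh24) alone, 26 (13.3%) with both mutations and 20 (10.3%) in wildtype. For all tested genes these shares were 34.1%, 17.3%, 33.3% and 15.3%. These counts, and the counts of libraries without overlap here and below, use the authors' size factors. They were not repeated with total reads, and the ranking of genotypes can depend on the scaling. The lowest mean was in the double mutant for 80 receptors (41%), against 28.6% of all genes. Without any overlap between libraries, the double mutant lay above all other genotypes in 8 receptors (4.1%), against 22.4% of all genes, and below them in 37 (19%), against 17.3%. Of the 195, 25 (12.8%) were called in none of the 5 comparisons of 2 groups and 16 (8.21%) in all of them, against 3.87% and 16% of all tested genes. The median level of the tested receptors was 3.67 FPKM, against 9.69 FPKM for all tested genes. The part of this difference in level in the shares called was not tested.

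**Figure D3:**
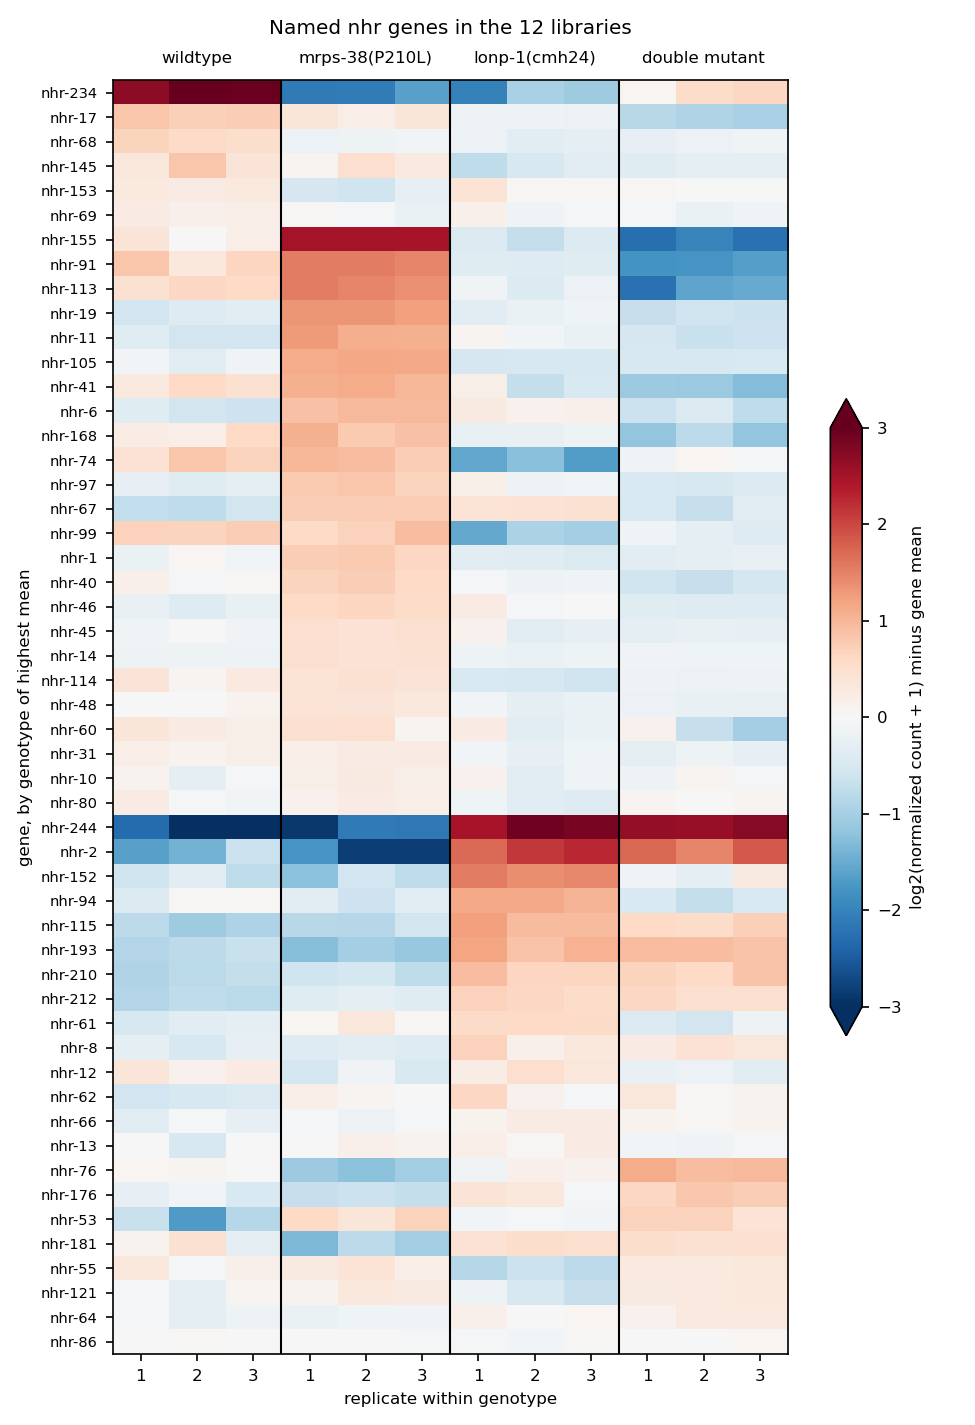
Log2(normalized count + 1) of 52 named nhr genes in the 12 libraries, each gene centred on its own mean (colour scale from -3 to 3) and sorted by the genotype of its highest mean. The largest blocks of red lie in mrps-38(P210L) and in lonp-1(cmh24), and nhr-244, nhr-2, nhr-155 and nhr-234 show the widest ranges.

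Receptors with roles in metabolism moved in different directions. Of 9, 3 were called higher and 4 lower in lonp-1(cmh24), 1 and 2 in mrps-38(P210L), and 3 and 3 in the double mutant, all against wildtype. The shares of all tested genes stood at 30.6% and 32.1%, 31.5% and 34.7%, and 40.9% and 33.6%. With total reads the counts were 3 and 2, 0 and 3, and 3 and 3. nhr-68, which together with nhr-10 switches on the propionate shunt, an alternative route of propionate breakdown used when vitamin B12 is low, was counted at 2005, 1875 and 1805 in wildtype, 1112, 1126 and 1182 with mrps-38(P210L) alone, 1113, 991 and 1020 with lonp-1(cmh24) alone and 1060, 1102 and 1153 with both. All 9 mutant libraries lay below the 3 wildtype libraries. It fell in all 3 mutants, with a log2 fold change against wildtype of -0.73 ± 0.06, limma adjusted p = 3.83e-07, in mrps-38(P210L), -0.86 ± 0.06, limma adjusted p = 5.42e-08, in lonp-1(cmh24), and -0.78 ± 0.06, limma adjusted p = 9.19e-08, in the double mutant. The double mutant and mrps-38(P210L) were at -0.05 with the authors' size factors, and at 0.22 and called with total reads. nhr-10 was not called in any comparison, with means of 382 ± 49 in wildtype (SD, n = 3), 459 ± 15 with mrps-38(P210L) alone, 370 ± 56 with lonp-1(cmh24) alone and 385 ± 33 with both.

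nhr-114, the receptor of highest level, acts in the intestine in the response to low vitamin B12 and protects the germline on some diets. It was counted at 4627, 3744 and 4298 in wildtype, 4640, 4838 and 4592 with mrps-38(P210L) alone, 2579, 2524 and 2307 with lonp-1(cmh24) alone and 3137, 3096 and 3165 with both. The lonp-1(cmh24) libraries were the lowest, those of the double mutant next, and the libraries of wildtype and mrps-38(P210L) overlapped. The gene fell in lonp-1(cmh24) (-0.77 ± 0.07, limma adjusted p = 6.15e-07) and less far in the double mutant (-0.43 ± 0.07, limma adjusted p = 0.000106). The difference between the double mutant and lonp-1(cmh24), 0.34 ± 0.07, was called with the authors' size factors (limma adjusted p = 0.00111) and not with total reads. The gene lies wholly inside Y45G5AM.9, a gene on the opposite strand with a mean normalized count of 862, and whether strand was used in counting is not given in the sources used here.

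Partners of nhr-49 in fat metabolism showed small differences. nhr-80, which with nhr-49 drives fatty acid desaturases, was at 447 in wildtype and 356 in lonp-1(cmh24), a called log2 fold change of -0.32 ± 0.1 (limma adjusted p = 0.00985) that was not called with total reads. nhr-66, which with nhr-49 represses sphingolipid and lipid-remodelling genes, rose in lonp-1(cmh24) (0.39 ± 0.07, limma adjusted p = 0.000419), from 834, 1012 and 872 to 1119, 1221 and 1220, with no overlap. nhr-13, another nhr-49 partner, rose by 0.34 ± 0.12 in lonp-1(cmh24) (limma adjusted p = 0.0278), a call lost without wildtype replicate 2 or without lonp-1(cmh24) replicate 1 or 3. None of the 3 was called in mrps-38(P210L) against wildtype.

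nhr-62, needed for the long life of diet-restricted worms, was higher in all 3 mutants. Its normalized counts were 101, 107 and 112 in wildtype, 174, 160 and 152 with mrps-38(P210L) alone, 231, 165 and 147 with lonp-1(cmh24) alone and 190, 155 and 163 with both. No mutant library fell into the wildtype range. The rise was 0.73 ± 0.15, limma adjusted p = 0.000813, in lonp-1(cmh24), 0.65 ± 0.15, limma adjusted p = 0.0015, in the double mutant, and 0.59 ± 0.15, limma adjusted p = 0.00331, in mrps-38(P210L), the last not called with total reads. nhr-31, which in the excretory cell drives genes of the vacuolar ATPase, fell in the double mutant (-0.38 ± 0.06, limma adjusted p = 3.78e-05) and in lonp-1(cmh24) (-0.32 ± 0.06, limma adjusted p = 0.00022), the latter not called with total reads. In mrps-38(P210L) nhr-31 was at 0.07 ± 0.06 and not called, and with total reads it was called lower, at -0.18.

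nhr-76, which acts in the intestine when serotonin signals drive fat loss, had the widest range of the 9 metabolic receptors, as the ratio of its highest to its lowest mean. Across replicates it stood at 275, 281 and 265 in wildtype, 124, 110.9 and 128 with mrps-38(P210L) alone, 246, 293 and 288 with lonp-1(cmh24) alone and 574, 499 and 521 with both. mrps-38(P210L) lay below and the double mutant above all other libraries, while wildtype and lonp-1(cmh24) overlapped. The gene fell with the mrps-38 mutation in wildtype (-1.18 ± 0.09, limma adjusted p = 2.82e-07) and rose with it in lonp-1(cmh24) worms (0.95 ± 0.09, limma adjusted p = 2.98e-06). The interaction was 2.12 ± 0.13 (limma adjusted p = 2.65e-08). atgl-1, the fat lipase that acts downstream of nhr-76 in that pathway, did not follow it across genotypes, with means of 663 in wildtype, 1850 with mrps-38(P210L) alone, 1210 with lonp-1(cmh24) alone and 1160 with both.

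The sterol-related receptors nhr-8 and nhr-48 are the closest relatives of daf-12, the receptor of the dafachronic acid hormones. nhr-8, which controls cholesterol balance and resistance to toxins, was counted at 571, 499 and 582 in wildtype, 531, 550 and 528 with mrps-38(P210L) alone, 1120, 771 and 860 with lonp-1(cmh24) alone and 821, 935 and 874 with both. All 6 libraries with the lonp-1 mutation lay above the 6 without it. It rose with the lonp-1 mutation in wildtype (0.72 ± 0.11, limma adjusted p = 9.78e-05) and in mrps-38(P210L) worms (0.71 ± 0.11, limma adjusted p = 5.99e-05), and the interaction was -0.01 ± 0.16 (limma adjusted p = 0.945). nhr-48 peaked in mrps-38(P210L), at 893, 887 and 846 against 667, 671 and 721 in wildtype. This rise of 0.35 ± 0.06 (limma adjusted p = 0.000212) was not called with total reads. In lonp-1(cmh24) nhr-48 was at 633, 559 and 589, at a called -0.21 ± 0.06 that turned to 0.02 with total reads.

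Among receptors of toxin and stress responses, nhr-86, which senses a bacterial metabolite and switches on pathogen defence genes, was the steadiest. Normalized counts of nhr-86 were 541, 552 and 543 in wildtype, 535, 533 and 515 with mrps-38(P210L) alone, 525, 504 and 549 with lonp-1(cmh24) alone and 540, 543 and 555 with both. The mrps-38(P210L) libraries lay just below those of wildtype and the double mutant, lonp-1(cmh24) overlapped all of them, and no comparison was called. The log2 fold changes of the 5 comparisons ran from -0.05 to 0.05, although with total reads lonp-1(cmh24) stood at 0.18 against wildtype and the double mutant at -0.16 against lonp-1(cmh24), both called. Its targets irg-4 and irg-5 fell in lonp-1(cmh24) (log2 fold changes -1.33 ± 0.08 and -3.66 ± 0.24) and rose in mrps-38(P210L) by 0.88 ± 0.08 and 1.43 ± 0.24.

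nhr-176, a receptor for the drug thiabendazole that drives the cytochrome P450 gene cyp-35D1, rose with the lonp-1 mutation. The libraries held 86.3, 96.9 and 74.9 in wildtype, 63, 64.9 and 62.7 with mrps-38(P210L) alone, 136, 128 and 101 with lonp-1(cmh24) alone and 159, 179 and 172 with both. The 4 genotypes did not overlap, with the order double mutant, lonp-1(cmh24), wildtype, mrps-38(P210L), an order shown by 1 of the 195 receptors (0.513%) and 5.08% of all tested genes. The rise was 0.49 ± 0.14 in wildtype (limma adjusted p = 0.00663) and 1.41 ± 0.14 in mrps-38(P210L) worms (limma adjusted p = 4.3e-07). The double mutant exceeded lonp-1(cmh24) by 0.49 for nhr-176 (limma adjusted p = 0.00863), a call lost with total reads. Its target cyp-35D1 had means of 28 in wildtype, 9.36 with mrps-38(P210L) alone, 9.71 with lonp-1(cmh24) alone and 20.2 with both, and fell in lonp-1(cmh24) with a log2 fold change of -1.46 ± 0.26 (limma adjusted p = 0.000292).

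nhr-45, which takes part in the detoxification response to mitochondrial dysfunction, and nhr-14, which limits iron uptake, peaked in mrps-38(P210L). nhr-45 was counted at 472, 516 and 479 in wildtype, 730, 699 and 728 with mrps-38(P210L) alone, 565, 419 and 438 with lonp-1(cmh24) alone and 430, 444 and 439 with both. The mrps-38(P210L) libraries lay above all others, and the gene rose there by 0.56 ± 0.09 (limma adjusted p = 0.000175). The lonp-1(cmh24) libraries overlapped those of wildtype, and the difference of -0.06 ± 0.09 was not called. nhr-14 was counted at 641, 636 and 633 in wildtype, 992, 951 and 967 with mrps-38(P210L) alone, 633, 614 and 640 with lonp-1(cmh24) alone and 653, 644 and 649 with both. It rose in mrps-38(P210L) (0.61 ± 0.05, limma adjusted p = 3.07e-07), and in lonp-1(cmh24) it stood at -0.02, not called, but at a called 0.21 with total reads.

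Among receptors of development, of 7 matched and tested genes, 5 were called higher and 1 lower in mrps-38(P210L) against wildtype, and 6 lower and 1 higher in the double mutant against mrps-38(P210L). The shares of all tested genes were 31.5% higher and 34.7% lower in the first comparison and 40% lower and 43.6% higher in the second. With total reads 4 were higher and 1 lower in the first, and the second kept its counts. Their median interaction was -1.44, with 5 called lower and 0 higher, against 31.6% and 34.4% of all genes. nhr-6, the worm's NR4A receptor, which shapes the spermatheca, was counted at 154, 136 and 128 in wildtype, 365, 388 and 393 with mrps-38(P210L) alone, 241, 217 and 221 with lonp-1(cmh24) alone and 128, 146 and 117 with both. Both single mutants lay above wildtype and the double mutant, which overlapped. It rose in mrps-38(P210L) (1.45 ± 0.1, limma adjusted p = 1.21e-07) and in lonp-1(cmh24) (0.7 ± 0.1, limma adjusted p = 5.66e-05), and the double mutant was at -0.1 ± 0.1 and not called.

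nhr-67, the relative of tailless that specifies the anchor cell and several neurons, had the same layout. Replicate by replicate, nhr-67 gave 32.7, 32.3 and 37.5 in wildtype, 92.2, 93.2 and 95.2 with mrps-38(P210L) alone, 74.2, 74.9 and 76 with lonp-1(cmh24) alone and 40, 33.9 and 43.4 with both. Both single mutants again lay above the other libraries without overlap. The neuron markers summed to 4330 in wildtype, 5980 with mrps-38(P210L) alone, 4240 with lonp-1(cmh24) alone and 3550 with both. As mean shares of reads they took 0.0195%, 0.0226%, 0.0224% and 0.0161% in the same order, with both single mutants above wildtype and the double mutant. Of the 5 markers, 0 were called higher and 3 lower in lonp-1(cmh24) against wildtype, and 2 and 1 with total reads. In mrps-38(P210L) against wildtype 3 were higher and 0 lower, and 2 and 0 with total reads. The part of these markers in the result was not tested. The rise was 1.43 ± 0.14 in mrps-38(P210L) (limma adjusted p = 1.61e-06) and 1.12 ± 0.14 in lonp-1(cmh24) (limma adjusted p = 1.18e-05), and the interaction -2.36 ± 0.2 (limma adjusted p = 3.44e-07).

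nhr-91, related to the vertebrate germ cell nuclear factor, and nhr-41, related to the testicular receptors TR2 and TR4, both ran from a peak in mrps-38(P210L) through wildtype and lonp-1(cmh24) to a low in the double mutant. nhr-91 was counted at 687, 479 and 597 in wildtype, 1114, 1106 and 1065 with mrps-38(P210L) alone, 299, 295 and 297 with lonp-1(cmh24) alone and 110, 112.5 and 120 with both, with no overlap between any of the groups. The log2 fold change was 0.91 ± 0.1 with mrps-38(P210L) alone, -0.97 ± 0.1 with lonp-1(cmh24) alone and -2.34 ± 0.1 with both, all against wildtype and all called (highest limma adjusted p = 6.44e-06). nhr-41 was counted at 514, 638 and 577 in wildtype, 889, 907 and 838 with mrps-38(P210L) alone, 475, 255 and 307 with lonp-1(cmh24) alone and 198, 195 and 171 with both. Its rise in mrps-38(P210L), 0.61 ± 0.18, was not called with total reads, and its fall in the double mutant was -1.61 ± 0.18 (limma adjusted p = 7.58e-06). This order of 4 genotypes without overlap was shown by 9 of 195 receptors (4.62%), the others being nhr-40, nhr-73, nhr-113, nhr-116, nhr-155, nhr-168 and nhr-265, and by 4.7% of all tested genes. nhr-40, which is needed for muscle development and movement, had a mean of 977 with mrps-38(P210L) alone, 638 in wildtype, 565 with lonp-1(cmh24) alone and 400 with both, and its small called fall in lonp-1(cmh24), -0.17 ± 0.07, turned to 0.06 with total reads and was lost without any 1 of 6 libraries. With the authors' size factors the body wall muscle markers were also highest in mrps-38(P210L) (158000). They were lower in the double mutant (104000) than in wildtype (134000), but lowest in lonp-1(cmh24) (59900). As a share of reads they were not highest in mrps-38(P210L), at 0.605% in wildtype and 0.595% with mrps-38(P210L) alone. The share was 0.316% with lonp-1(cmh24) alone and 0.474% with both, and the part of these markers in the result was not tested.

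nhr-2, a receptor of the early embryo, had few reads without the lonp-1 mutation. It was counted at 3.97, 4.75 and 8.87 in wildtype, 3.5, 1.18 and 1.16 with mrps-38(P210L) alone, 48.9, 65.8 and 72.7 with lonp-1(cmh24) alone and 49.6, 41.7 and 53.9 with both. All 6 libraries with the lonp-1 mutation lay far above the other 6. It rose in lonp-1(cmh24) (3.26 ± 0.34, limma adjusted p = 2.57e-06) and in the double mutant (2.91 ± 0.34, limma adjusted p = 5.58e-06). In raw reads lonp-1(cmh24) had 226 and wildtype 18, a ratio of 10.7 after scaling, with a 95% interval of 6.61 to 18.4 that covers counting error only. The summed count of 5 germline markers was 18900 in wildtype, 11100 with mrps-38(P210L) alone, 21200 with lonp-1(cmh24) alone and 31500 with both, and its part in the result was not tested. nhr-60, which acts in the seam cells of the skin, was called lower in the double mutant against wildtype (-0.79 ± 0.28, limma adjusted p = 0.0196), a call lost without wildtype replicate 1 or double mutant replicate 2 or 3.

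The HNF4-like receptors nhr-64 and nhr-69 changed little. nhr-64 rose in the double mutant against wildtype by 0.4 ± 0.08 (limma adjusted p = 0.000796), and in mrps-38(P210L) it stood at 0.02, not called, but at a called -0.24 with total reads. nhr-69 fell in the double mutant with a log2 fold change of -0.34 ± 0.08 (limma adjusted p = 0.0027), from 528, 488 and 510 to 423, 382 and 404, with no overlap. For nhr-69 the double mutant against mrps-38(P210L) stood at -0.06 ± 0.08, not called, and at a called 0.21 with total reads.

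Beyond the role groups, 15 receptors (7.69%) had both single mutants above both wildtype and the double mutant without overlap, against 2.97% of all tested genes. Besides nhr-6 and nhr-67 these were nhr-3, nhr-11, nhr-13, nhr-21, nhr-46, nhr-59, nhr-61, nhr-71, nhr-84, nhr-97, nhr-120, nhr-180 and nhr-183. The opposite layout, both single mutants below, was shown by 3 (1.54%), namely nhr-16, nhr-93 and nhr-234, against 6.88% of all genes. nhr-97, which held 7.97% of all reads of the family, was counted at 2932, 2711 and 2872 in wildtype, 6008, 6221 and 5566 with mrps-38(P210L) alone, 3942, 3137 and 3302 with lonp-1(cmh24) alone and 2520, 2479 and 2639 with both. It rose in mrps-38(P210L) (1.06 ± 0.08, limma adjusted p = 1.2e-07) and in lonp-1(cmh24) (0.28 ± 0.08, limma adjusted p = 0.00582), while the double mutant stood at -0.16 ± 0.08 and was not called. nhr-46 had means of 870 ± 55 in wildtype (SD, n = 3), 1600 ± 55 with mrps-38(P210L) alone, 1110 ± 130 with lonp-1(cmh24) alone and 811 ± 5.7 with both, with an interaction of -1.32 ± 0.11 (limma adjusted p = 2.31e-07). nhr-61 peaked in lonp-1(cmh24) instead, at 360, 365 and 361 against 174, 193 and 200 in wildtype (0.94 ± 0.12, limma adjusted p = 1.01e-05).

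The mrps-38(P210L) mutant had the highest values of many receptors on the authors' size factors. In 58 of 195 (29.7%) its libraries lay above those of all other genotypes, against 23.6% of all genes. nhr-19 was counted at 218, 250 and 261 in wildtype, 816, 814 and 767 with mrps-38(P210L) alone, 255, 284 and 300 with lonp-1(cmh24) alone and 202, 213 and 208 with both. It rose in mrps-38(P210L) (1.72 ± 0.09, limma adjusted p = 7e-09), and the lonp-1(cmh24) libraries overlapped those of wildtype (0.2 ± 0.09, not called). nhr-105 was counted at 456, 384 and 450 in wildtype, 1049, 1079 and 1069 with mrps-38(P210L) alone, 339, 346 and 344 with lonp-1(cmh24) alone and 345, 348 and 354 with both. Its rise in mrps-38(P210L) was 1.31 ± 0.07 (limma adjusted p = 1.19e-08), and both groups with the lonp-1 mutation stood a little below wildtype, with -0.32 ± 0.07 in lonp-1(cmh24), a call lost with total reads. The double mutant and lonp-1(cmh24) were at 0.02, and at a called -0.19 with total reads. nhr-1 rose from 1013, 1211 and 1111 to 1963, 2027 and 1810 in mrps-38(P210L) (0.8 ± 0.07, limma adjusted p = 5.65e-07) and nhr-11 from 108, 94.1 and 94.6 to 337, 297 and 294 (1.64 ± 0.11, limma adjusted p = 7.06e-08).

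nhr-155 had the largest fall from mrps-38(P210L) to the double mutant among the named receptors, -4.66 ± 0.19 on the log2 scale. Its normalized counts were 34.7, 26.6 and 30.6 in wildtype, 155, 155 and 152 with mrps-38(P210L) alone, 19.4, 15.6 and 19.8 with lonp-1(cmh24) alone and 4.77, 5.82 and 4.82 with both, with no overlap between groups. It rose with the mrps-38 mutation in wildtype (2.3 ± 0.19, limma adjusted p = 3.35e-07) and fell with it in lonp-1(cmh24) worms (-1.65 ± 0.19, limma adjusted p = 1.01e-05). The interaction was -3.95 ± 0.26 (limma adjusted p = 4.77e-08). The hypodermal marker sums, scaled by the authors' size factors, ran in the same order of genotypes, from 120000 through 102000 and 48700 to 21500. Their share of reads did not peak in mrps-38(P210L), at 0.453% there against 0.459% for wildtype. It was 0.257% with lonp-1(cmh24) alone and 0.0978% with both mutations. Among these 5 markers, 1 was called higher and 3 lower in lonp-1(cmh24) against wildtype, and their part in the result was not tested.

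**Figure D4:**
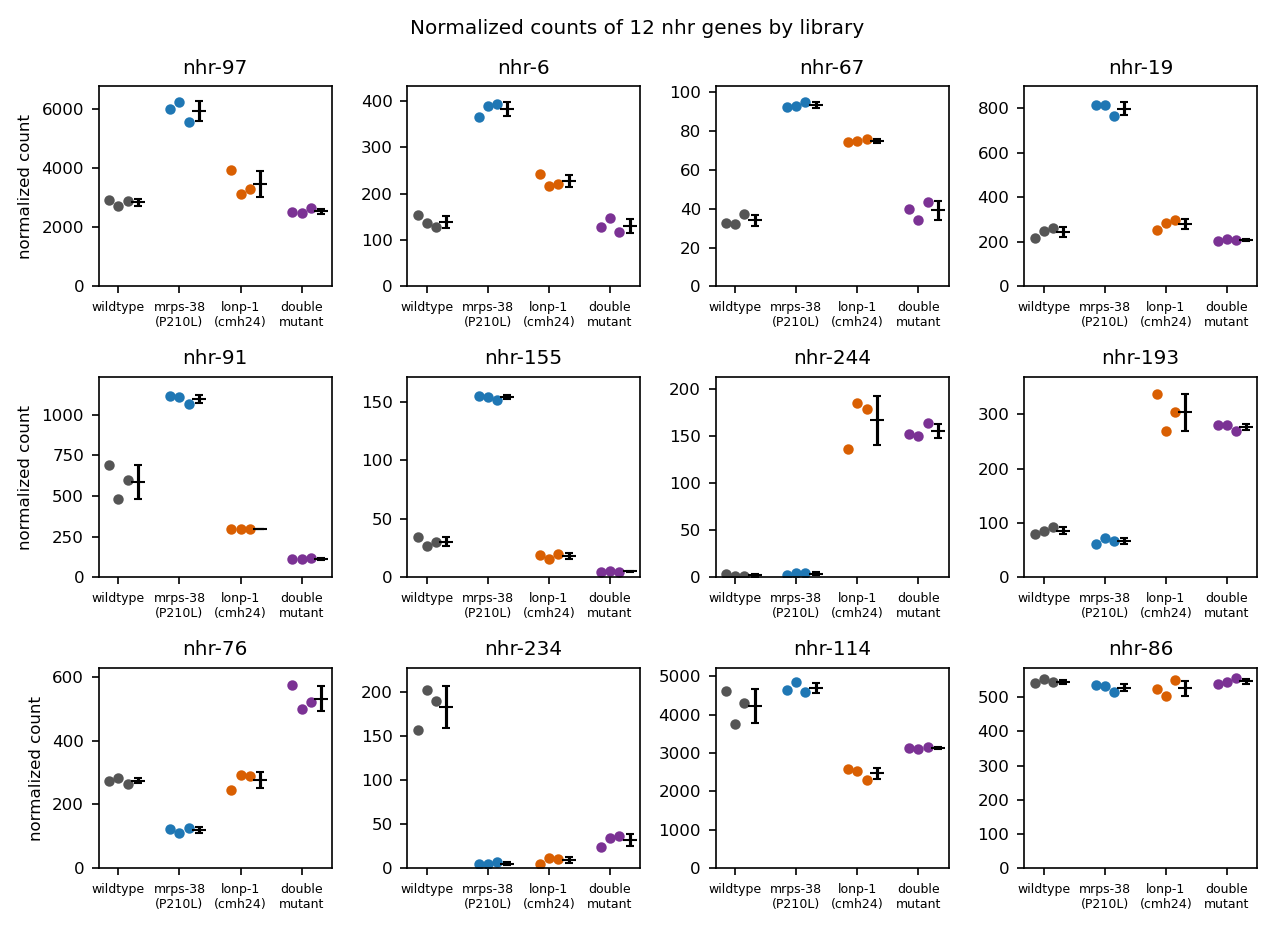
Normalized counts of 12 nhr genes in the 3 libraries of each genotype (points), with mean and SD (black bars). The upper row and nhr-91 peak in mrps-38(P210L), nhr-244 and nhr-193 are high in both genotypes with the lonp-1 mutation, nhr-76 peaks in the double mutant, nhr-114 is lowest in lonp-1(cmh24), nhr-234 is high in wildtype, and nhr-86 lies between 503.6 and 554.8.

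Other receptors followed the lonp-1 mutation in both backgrounds, at shares below those of all genes. In 24 receptors (12.3%) all 6 libraries with the lonp-1 mutation lay above the 6 without it, and in 30 (15.4%) below, against 21.8% and 20.6% of all genes. nhr-244 was counted at 3.97, 1.9 and 0.986 in wildtype and 2.33, 4.72 and 4.64 in mrps-38(P210L), but at 137, 185 and 178 in lonp-1(cmh24) and 153, 150 and 164 in the double mutant. The 2 sets of libraries were far apart. The raw reads were 603 in lonp-1(cmh24) and 7 in wildtype, a ratio of 73.3 after scaling with a 95% interval of 35.4 to 183 for counting error only. On the log2 scale the rise was 5.76 ± 0.32, limma adjusted p = 6.96e-09, and it was 6.04 with a pseudocount of 0.5 and 4.57 with a pseudocount of 5. The mrps-38 mutation made no called difference in wildtype (0.64 ± 0.32) or in lonp-1(cmh24) worms (-0.09 ± 0.32).

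Genes on chromosome V named by the same pattern had smaller but tight differences. nhr-193 was counted at 79.3, 84.6 and 92.6 in wildtype, 60.7, 71.9 and 66.1 with mrps-38(P210L) alone, 336, 269 and 305 with lonp-1(cmh24) alone and 280, 279 and 270 with both (1.81 ± 0.11, limma adjusted p = 1.77e-08 in lonp-1(cmh24) against wildtype). nhr-115 was counted at 120, 97.9 and 108 in wildtype, 117, 114.4 and 140 with mrps-38(P210L) alone, 491, 399 and 402 with lonp-1(cmh24) alone and 316, 302 and 343 with both (1.97 ± 0.12, limma adjusted p = 1.42e-08). nhr-210 rose by 1.55 ± 0.11 and nhr-212 by 1.44 ± 0.09 in lonp-1(cmh24), and by 1.51 ± 0.11 and 1.34 ± 0.09 in the double mutant, all against wildtype and all called. In all 4 the groups with and without the lonp-1 mutation did not overlap.

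In 23 receptors (11.8%) lonp-1(cmh24) lay above all other genotypes, against 6.52% of all genes, so in these the double mutant was lower than lonp-1(cmh24). In some of them, nhr-115 and nhr-152 included, the double mutant still lay above wildtype and mrps-38(P210L) without overlap. nhr-152 was counted at 27.8, 33.3 and 24.6 in wildtype, 17.5, 28.3 and 24.4 with mrps-38(P210L) alone, 125, 112.7 and 117 with lonp-1(cmh24) alone and 39.1, 34.9 and 51 with both. It rose in lonp-1(cmh24) (2.02 ± 0.21, limma adjusted p = 1.98e-06) and was lower in the double mutant than there (-1.5 ± 0.21, limma adjusted p = 5.8e-05). The double mutant exceeded wildtype by 0.52 for nhr-152 (limma adjusted p = 0.0358), a call lost with TMM factors, edgeR or DESeq2. That call was also lost without wildtype replicate 1 or 3 or double mutant replicate 1 or 3. Its neighbour nhr-94 rose from 65.5, 90.3 and 89.7 to 194, 196 and 180 in lonp-1(cmh24) (1.22 ± 0.15, limma adjusted p = 1.12e-05) and stood at 63.9, 53.3 and 63.6 in the double mutant. nhr-53, outside that set, was higher in all 3 mutants, at 110.9, 94.3 and 120 in mrps-38(P210L), 70, 70.8 and 69.4 in lonp-1(cmh24) and 119.2, 120 and 98.2 in the double mutant against 45.6, 21.9 and 40.4 in wildtype (1.62 ± 0.22, limma adjusted p = 2.86e-05 in mrps-38(P210L)).

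Other receptors fell in lonp-1(cmh24) and were higher again in the double mutant. nhr-74 was counted at 155, 201 and 181 in wildtype, 228, 217 and 190 with mrps-38(P210L) alone, 37.9, 46.9 and 34.7 with lonp-1(cmh24) alone and 105, 118 and 109 with both. lonp-1(cmh24) was the lowest group and the double mutant lay between it and the other groups. It fell in lonp-1(cmh24) (-2.14 ± 0.14, limma adjusted p = 3.04e-08) and the double mutant exceeded lonp-1(cmh24) by 1.46 ± 0.14 (limma adjusted p = 2.33e-06). nhr-99 and nhr-55 fell in lonp-1(cmh24) with log2 fold changes of -1.86 ± 0.17 and -0.92 ± 0.11, and both were higher in the double mutant than there, by 0.89 ± 0.17 and 1.07 ± 0.11, all called. nhr-121 fell in lonp-1(cmh24) (-0.36 ± 0.13), a call lost with total reads and without any 1 of 4 libraries. It was higher in the double mutant than there by 0.74 (limma adjusted p = 0.000374). nhr-145 fell in lonp-1(cmh24) as well (-1.04 ± 0.17, limma adjusted p = 0.000152), but was not called between the double mutant and lonp-1(cmh24) (0.21, limma adjusted p = 0.316).

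nhr-17 stepped down with each mutation. Across replicates it stood at 742, 689 and 702 in wildtype, 544, 479 and 540 with mrps-38(P210L) alone, 375, 375 and 371 with lonp-1(cmh24) alone and 237, 223 and 214 with both, with no overlap between groups. The log2 fold change was -0.45 ± 0.07 for mrps-38(P210L), -0.93 ± 0.07 for lonp-1(cmh24) and -1.66 ± 0.07 for the double mutant against wildtype (highest limma adjusted p = 9.34e-05). The interaction was -0.28 ± 0.1 (limma adjusted p = 0.0232), a call lost with total reads and without mrps-38(P210L) replicate 1 or 3 or double mutant replicate 3.

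nhr-234 had the largest positive interaction of the named receptors. Normalized counts of nhr-234 were 157, 202 and 190 in wildtype, 4.67, 4.72 and 6.96 with mrps-38(P210L) alone, 5.06, 11.5 and 10.7 with lonp-1(cmh24) alone and 24.8, 34.9 and 36.6 with both. Wildtype was the highest group, the double mutant the next, and the single mutants the lowest. The fall against wildtype was -4.85 ± 0.29, limma adjusted p = 2.79e-08, in mrps-38(P210L), -4.25 ± 0.29, limma adjusted p = 4.43e-08, in lonp-1(cmh24), and -2.49 ± 0.29, limma adjusted p = 4.71e-06, in the double mutant, with an interaction of 6.61 ± 0.41 (limma adjusted p = 2.63e-08). The adjacent receptor nhr-235, named for its position after its values were seen, was counted at 66.5, 70.3 and 73.9 in wildtype, 21, 10.6 and 15.1 with mrps-38(P210L) alone, 0.843, 4.11 and 2.48 with lonp-1(cmh24) alone and 2.86, 6.79 and 3.85 with both. It fell in all 3 mutants as well (-2.15 ± 0.39, limma adjusted p = 0.000328 in mrps-38(P210L)). Of the 5 protein-coding genes on each side of nhr-234, the 7 that were tested, nhr-235 among them, had log2 fold changes from -4.47 to 0.49 in lonp-1(cmh24) and from -4.38 to 0.83 in mrps-38(P210L).

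Both of these genes lie on chromosome II, in the WBcel235 build used by the deposited tables (nhr-234 and nhr-235 together span II:12636678-12642917). nhr-244 lies at I:11454780-11455539, in a stretch of 46.6 kb that also holds nhr-74, nhr-73 and nhr-113 (I:11429014-11475662) and starts 747 kb from lonp-1 on the same chromosome. Within it nhr-244 rose in lonp-1(cmh24) by 5.76 ± 0.32, while nhr-74 (-2.14 ± 0.14), nhr-73 (-1.55 ± 0.3) and nhr-113 (-0.79 ± 0.19) fell, all called. The 8 tested genes of the 10 protein-coding genes around nhr-244 ranged from -2.14 to 3.36 in lonp-1(cmh24) and from -0.32 to 1.1 in mrps-38(P210L). With 1 lonp-1 allele, effects of the mutation and of sequence linked to it cannot be told apart.

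Many receptors lie next to one another, and neighbours could differ in direction. Counted by order along the chromosome, 133 of the 243 lay in 41 runs of at least 2 adjacent members, 29 of these runs on chromosome V, and 77 members in 13 runs of 3 or more. The longest run, from nhr-123 to nhr-106 (V:451451-491432), held 11 receptors, 4 of them called higher and 2 lower in lonp-1(cmh24) against wildtype, with log2 fold changes from -1.86 (nhr-99) to 1.44 (nhr-212). The run of 7 from nhr-56 to nhr-96 was more uniform, from 0.15 to 0.95 with 4 higher and 0 lower. In this comparison 30.6% of all tested genes were called higher and 32.1% lower. Of the 8 runs with at least 5 tested members, which held 54 receptors, 2 had calls in both directions in lonp-1(cmh24), 3 in mrps-38(P210L), and 5 in the double mutant against mrps-38(P210L). The shares of all tested genes called higher and lower were 31.5% and 34.7% in mrps-38(P210L), and 43.6% and 40% in the last comparison. Whether these runs differ from other adjacent genes was not tested. Neighbouring family members can resemble one another in sequence, and how reads that match several of them were counted is not given in the sources used here.

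**Figure D5:**
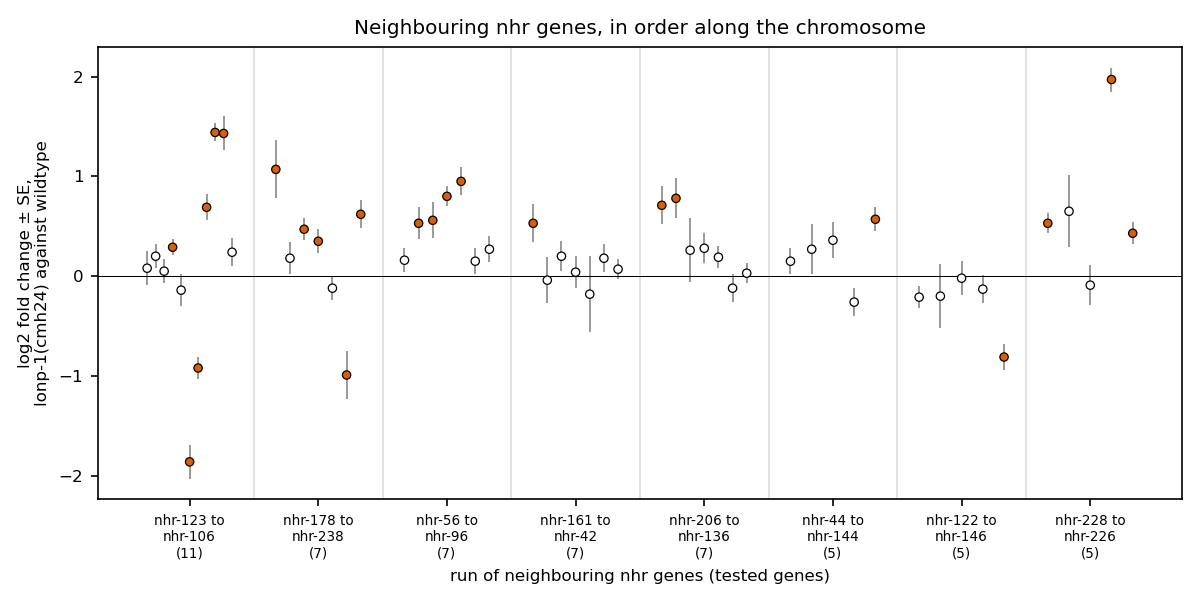
Log2 fold change ± SE in lonp-1(cmh24) against wildtype for the tested nhr genes of the 8 runs of neighbours with at least 5 tested members, in order along the chromosome (filled points are called). The run from nhr-123 to nhr-106 spans -1.86 to 1.44, while the run from nhr-56 to nhr-96 lies between 0.15 and 0.95.

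Other genes of nuclear receptor signalling were taken from 4 lists. Of 10 further receptors (daf-12, fax-1, odr-7, sex-1, unc-55 and the 5 nhr genes set aside above), 9 were tested, and in mrps-38(P210L) 8 were called higher and 0 lower (6 and 0 with total reads), with a median of 0.76, against 31.5% and 34.7% of all genes. The interaction was called lower for 8 and higher for 0, with a median of -1.39, against 31.6% and 34.4%. daf-12 had means of 1250 ± 98 in wildtype (SD, n = 3), 4560 ± 200 with mrps-38(P210L) alone, 1230 ± 150 with lonp-1(cmh24) alone and 809 ± 34 with both, and rose in mrps-38(P210L) by 1.87 ± 0.08 (limma adjusted p = 2.49e-09). Of 7 coregulators, 6 were called higher and 1 lower in mrps-38(P210L), counts that became 2 and 1 with total reads. Those called higher with the authors' size factors included mdt-15, the Mediator subunit that serves nhr-49 (0.45 ± 0.09), and din-1, the corepressor of daf-12 (0.78 ± 0.06).

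Of 8 genes of sterol transport and hormone synthesis 7 were tested. In mrps-38(P210L) 3 were higher and 2 lower (2 and 3 with total reads), and in the double mutant against wildtype 3 were higher and 3 lower, against 31.5% and 34.7% and against 40.9% and 33.6% of all genes. daf-9, the cytochrome P450 that makes dafachronic acid, had means of 205 ± 43 in wildtype, 511 ± 18 with mrps-38(P210L) alone, 170 ± 9.5 with lonp-1(cmh24) alone and 47.5 ± 5.8 with both (SD, n = 3), and fell in the double mutant with a log2 fold change of -2.07 ± 0.14 (limma adjusted p = 2.02e-08). dhs-16, a dehydrogenase of the same pathway, fell in the double mutant with a log2 fold change of -3.02 ± 0.17 (limma adjusted p = 4.94e-09).

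Of 14 described target genes of the receptors, 11 were lower and 2 higher in lonp-1(cmh24), with a median of -0.81, and 9 were higher and 3 lower in mrps-38(P210L), with a median of 0.47. Setting the double mutant against lonp-1(cmh24), 9 were higher and 0 lower. The shares of all tested genes, higher and lower, were 30.6% and 32.1%, 31.5% and 34.7%, and 29.8% and 24.5% in these comparisons. With total reads the target genes gave 2 higher and 10 lower, 7 and 4, and 5 and 3. fat-7, a stearoyl-CoA desaturase under nhr-49 and nhr-80, had means of 1640 ± 280 in wildtype (SD, n = 3), 374 ± 80 with mrps-38(P210L) alone, 68.2 ± 14 with lonp-1(cmh24) alone and 500 ± 28 with both. It fell in lonp-1(cmh24) with a log2 fold change of -4.57 ± 0.18 (limma adjusted p = 1.52e-09) and in mrps-38(P210L) with -2.13 ± 0.18 (limma adjusted p = 1.01e-06). acdh-1, the acyl-CoA dehydrogenase of the propionate shunt under nhr-10 and nhr-68, fell in lonp-1(cmh24) with a log2 fold change of -0.71 ± 0.05 (limma adjusted p = 1.07e-07) and in mrps-38(P210L) with -0.18 ± 0.05 (limma adjusted p = 0.00818), against -0.86 and -0.73 for nhr-68.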

How the data were processed

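The study measured RNA of whole L4 worms by stranded paired-end sequencing of 100-base reads, per the labels' protocols. Per the submitters' processing notes, STAR, featureCounts, DESeq2 and WBcel235 were used; no versions are given in the sources used here. As deposited by the authors, the tables hold a normalized count (a signal, reads divided by 1 size factor per library) and an FPKM value per gene and library. All 12 columns of each table matched a library by name. The deposited values were whole multiples of 1 step per library (100% within 0.01), so whole reads were recovered, and the deposited FPKM values follow from the same reads and the total per library.

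The members and gene lists were chosen with earlier results of these data known. Differences were tested with limma 3.58.1 (R 4.3.3, statmod 1.5.0) on log2(normalized count + 1), using its trend and robust options, with the 12 libraries in 1 fit and a mean per genotype. Genes with a mean of at least 10 were tested, and p-values adjusted by Benjamini-Hochberg at 0.05 over all 15717. The step was tested on simulated data. Named genes are, per comparison, the 6 called members of largest change in each direction with a mean of at least 50 and, except for the interaction, no overlap between groups, the 10 of highest FPKM, and the role lists. Alternatives were pseudocounts of 0.5 and 5, no filter and a filter at 50, TMM factors, total reads, the FPKM table, count tests of the recovered reads (edgeR 4.0.16, DESeq2 1.42.0), the replicate number as a block, separate fits for the groups compared, and each library left out. No member sequence was used here. nhr-111 and the marker opt-2 were not analysed here.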

Additional observations from a re-analysis of the deposited data

Results flagged for a closer look

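The effect of the lonp-1 mutation differed between wildtype and mrps-38(P210L) worms for 35 of the 52 named receptors, by limma's interaction term at an adjusted p below 0.05. That is 67.3% of them, against 66% of all tested genes, and 12 of the 52 were named for the size of their called interaction. The interaction, on the log2 scale, was below 0 for 26 of them. The values below -2 belonged to nhr-155 (-3.95), nhr-113 (-2.44), nhr-67 (-2.36), nhr-91 (-2.28), nhr-6 (-2.25), nhr-11 (-2.16) and nhr-19 (-2.14). Between -2 and -1 lay nhr-97 (-1.5), nhr-61 (-1.45), nhr-41 (-1.44), nhr-168 (-1.41), nhr-94 (-1.33), nhr-46 (-1.32), nhr-105 (-1.29), nhr-152 (-1.21) and nhr-40 (-1.11). The remaining values below 0 were those of nhr-53 (-0.95), nhr-1 (-0.71), nhr-62 (-0.67), nhr-45 (-0.66), nhr-115 (-0.61), nhr-212 (-0.59), nhr-14 (-0.56), nhr-13 (-0.51), nhr-48 (-0.37) and nhr-17 (-0.28). The interaction was above 0 for 9 receptors, namely nhr-234 (6.61), nhr-76 (2.12), nhr-74 (1.22), nhr-181 (1.16), nhr-55 (0.93), nhr-176 (0.91), nhr-99 (0.85), nhr-68 (0.82) and nhr-153 (0.59). No explanation of these values was tested.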

How the results depend on the processing

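Shares of the tested receptors called moved by over 1.5 times on total reads, in FPKM values and, for 1 share, with edgeR. For lonp-1(cmh24) against wildtype 52.3% were higher and 10.3% lower on total reads, and 53.1% and 9.38% in FPKM values. For mrps-38(P210L) against wildtype 21% were higher and 26.2% lower on total reads, and 20.8% and 26% in FPKM values. For the double mutant compared with lonp-1(cmh24) 4.62% were higher and 62.1% lower on total reads, 5.21% and 62% in FPKM values, and 56.9% lower with edgeR on the recovered reads. Among the calls of all genes on total reads, 67.1%, 25.5% and 30.3% were higher in these comparisons, in the order given. The other shares of receptors called stayed within 1.5 times, among them 18 of 150 lower in mrps-38(P210L) with a filter at a mean of 50. Named values that were called before or after the change and turned sign did so on total reads and in FPKM values, given below in that order. Values called under neither setting turned sign 46 times when 1 library was left out (nhr-10 in lonp-1(cmh24) against wildtype, for example, at -0.05, ran from -0.16 to 0.05) and 48 times in total reads and FPKM values (nhr-114 in mrps-38(P210L) against wildtype went from 0.16 to -0.1). The called values that turned sign against wildtype in lonp-1(cmh24) were nhr-14 at 0.21 and 0.21, nhr-40 at 0.06 and 0.05, nhr-48 at 0.02 and 0.02, and nhr-86 at 0.18 and 0.18. Against wildtype in mrps-38(P210L) they were nhr-31 at -0.18 and -0.18, and nhr-64 at -0.24 and -0.24. Between the double mutant and lonp-1(cmh24) they were nhr-105 at -0.19 and -0.19, nhr-14 at -0.17 and -0.17, and nhr-86 at -0.16 and -0.16. Between the double mutant and mrps-38(P210L) they were nhr-68 at 0.22 and 0.22, and nhr-69 at 0.21 and 0.2. The size factors ran from 0.84794 to 1.2153 at nearly equal totals, so both scalings differ by these factors alone.

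Leaving out each library gave 27.2% to 31.4% higher and 15.4% to 20% lower for lonp-1(cmh24) against wildtype, 33.5% to 42.6% and 11.8% to 14.4% for mrps-38(P210L) against wildtype, 18.4% to 23.2% and 29.6% to 35.4% for the double mutant against wildtype, 6.67% to 9.74% and 28.2% to 36.1% for the double mutant compared with lonp-1(cmh24), 18.9% to 22.6% and 42.3% to 45.6% for the double mutant compared with mrps-38(P210L), and 7.65% to 8.76% and 43.1% to 48% for the interaction. Same-numbered replicates deviated together (correlation over 0.1) in 1 of 18 pairs, from -0.159 to 0.122, so the numbers were not taken to pair the samples. With the replicate number as a block the shares were 30.3% and 17.9%, 37.9% and 12.8%, 21% and 33.3%, 8.72% and 33.3%, 21.5% and 44.1%, and 7.69% and 45.1% in the same order (replicate block). Low counts limit what depth allows, and 48 receptors were not tested.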

Other observations

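Several genes of the family outside the naming rule, chosen after their values were seen because of wide changes at a low level, are given here as values. nhr-266, annotated as a pseudogene, was counted at 41.7, 33.3 and 25.6 in wildtype, 0, 0 and 4.64 with mrps-38(P210L) alone, 22.8, 32.9 and 25.6 with lonp-1(cmh24) alone and 51.5, 76.6 and 77.1 with both. The only mrps-38(P210L) library with a read was replicate 3, the library whose sperm and yolk sums also stood above the other replicates. The double mutant exceeded mrps-38(P210L) for nhr-266 by 5.26 ± 0.55 on the log2 scale (limma adjusted p = 1.55e-06), a value that depends on the pseudocount because 2 libraries were at 0. nhr-171 and nhr-93 also peaked in the double mutant, at 28.6, 43.6 and 46.2 against 20.8, 15.2 and 11.8 in wildtype and at 44.8, 34.9 and 41.4 against 23.8, 29.4 and 23.6.

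nhr-270 and nhr-150 ran the other way. nhr-270 was counted at 114.4, 100 and 96.3 in mrps-38(P210L) and 8.58, 12.6 and 5.78 in the double mutant, with 36.7, 27.6 and 34.5 in wildtype and 28.7, 29.6 and 36.3 in lonp-1(cmh24). nhr-150 was counted at 57.2, 54.2 and 65 in mrps-38(P210L) and 7.63, 6.79 and 14.4 in the double mutant. In both, wildtype and lonp-1(cmh24) overlapped and lay between the other genotypes.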
